A study of Caenorhabditis elegans with 161 samples.

Results

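The hedgehog-related and patched-related genes of the nematode Caenorhabditis elegans were followed through embryogenesis. Genes were taken into the set by name alone: every gene of the deposited count tables whose sequence name maps, by its RefSeq locus tag, to the symbol prefix wrt, grd, grl, hog, ptr or ptc and a number. The rule gave 87 symbols, of which 85 were among the 20687 genes of the tables; grl-32 and grd-17, which RefSeq lists as pseudogenes, were not analysed here. Of the 85 genes, 58 are ligand-like (10 warthog or wrt genes, 16 groundhog or grd genes, 31 ground-like or grl genes and hog-1) and 27 are receptor-like (24 patched-related or ptr genes and 3 patched or ptc genes). The rule itself uses no measured value.

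Whole embryos of 20 strains were collected at 0, 60, 180, 270, 440, 650 and 830 min of incubation after the 4-cell stage, with 1 pool of 10 embryos per strain and stage. The strains comprise 19 numbered mutation-accumulation lines (502 to 598), a kind of line kept through repeated population bottlenecks so that new mutations build up, and N2, the standard laboratory strain. No treatment was given beyond the bleach and albumin washes that all embryos shared, and embryos were cut out of adult worms before they were timed. A second set of 21 libraries repeated strain 522 at 7 time points, called A to G after their titles, with 3 libraries each, and here A to G were set beside the 7 stages in order, because for 18 of them the labelled time and the title disagree. Within a stage the strain pools come from 20 strains, so their spread mixes differences between strains with technical ones. Nothing states that the pools of 1 strain, or the repeats of strain 522, came from separate cultures. A p-value thus measures only how far these samples spread, and in the repeats that spread may be technical.

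In animals such as flies and vertebrates, Hedgehog ligands are secreted proteins that cut themselves and gain a lipid, and they act by blocking the membrane receptor Patched. C. elegans lacks a true Hedgehog ligand and a clear Smoothened, the protein that Patched controls elsewhere. Instead it carries a large family of secreted proteins with Wart, Ground or Ground-like domains at the front, joined in many warthog and groundhog proteins and in hog-1 to the self-cutting Hog domain, and a large family of membrane proteins with a sterol-sensing domain, the patched and patched-related proteins. Many of these genes are known from the epidermis, seam cells, glia and tube cells, and loss of several patched-related genes disturbs moulting, the cuticle and cell division.

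RNA was measured by CEL-Seq, which counts 1 tag at the 3' end of each transcript, so a level does not scale with gene length. Levels are given as CPM, counts scaled to the total gene counts of a library, per 1e6. The strain libraries held 5653 to 525902 counts with a median of 57199, and the repeat libraries held 58543 to 623958 with a median of 219346. At the median strain depth 1 count is thus near 17.5 CPM. In whole embryos, fewer cells that express a gene and less RNA per cell cannot be told apart. In marker lists, the median over strains of the summed level of 5 maternal germline transcripts was 217 CPM at 180 min, against 7516 CPM at 0 min, that of 5 epidermal genes was highest at 440 min (2958 CPM), that of 5 pharynx genes at 650 min (5021 CPM), and those of 5 gut and 5 body wall muscle genes at 830 min (5923 and 6499 CPM). These sums follow their abundant members, and the regulators in the lists had their highest means elsewhere: elt-1, elt-7 and hlh-1 at 180 min, lin-26, elt-3, unc-120 and pha-4 at 270 min, and elt-2 at 440 min. Single libraries lay far from the medians. The highest maternal sums were 919 CPM at 440 min and 1248 CPM at 650 min. For 6 yolk protein genes of the adult gut the median sum was 557 CPM at 0 min and 179 CPM at 650 min. The highest libraries of these stages held 6672 and 3166 CPM. The part of such RNA in the results was not tested.

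The summed levels of the ligand-like and of the receptor-like genes were highest at different stages. That order changed when 2 genes of each kind, abundant at its highest stage, were left out. The summed level of the 58 ligand-like genes had a higher mean at each stage than at the one before up to 650 min. From 0 to 830 min, in order of the 7 stages, it was 101 ± 56.2, 132 ± 81.4, 478 ± 141, 1417 ± 326, 2236 ± 640.2, 4762 ± 1352 and 1804 ± 613 CPM (mean ± SD, n = 20 strains). In all 20 strains the maximum of this sum fell at 650 min. The summed level of the 27 receptor-like genes had 2 highs. From 0 to 830 min, in order of the 7 stages, it was 1039 ± 287, 259 ± 112, 255 ± 90.3, 343 ± 165, 2382 ± 512, 1945 ± 516 and 766 ± 205 CPM. Its maximum fell at 440 min in 15 strains and at 650 min in 5. In the 3 repeats of strain 522, the ligand-like sum was 5374, 4481 and 4886 CPM at F, against 3556, 2929.8 and 2959.7 CPM at E, and the receptor-like sum was 2464, 2079 and 2611 CPM at F, against 3396, 3166 and 3106 CPM at E. The 3 libraries of E and F do not overlap for either sum. Without grl-16 and grl-4, the remaining 56 ligand-like genes summed to 1959 ± 417 CPM at 650 min, against 2197 ± 641 CPM at 440 min. Without ptr-4 and ptr-25, the remaining 25 receptor-like genes summed to 1926 ± 504 CPM at 650 min, against 1104 ± 263 CPM at 440 min (mean ± SD, n = 20 strains). The order of the 2 stages is thus turned round for both kinds when these genes are left out. For the ligand-like genes the means then lie within 1 SD of each other. The genes were chosen after their values were seen, as the 2 highest of each kind at the stage of its highest sum. This choice lowers that stage by design, so it does not show what leaving out other abundant genes would do. In the repeats the same sums were 2348, 1658 and 2483 CPM at F, against 3551, 2926 and 2959.7 CPM at E, for ligand-like genes, and 2456, 2079 and 2604 CPM at F, against 1938, 1862 and 1905 CPM at E, for receptor-like genes. The difference between the 2 kinds was not tested.

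**Figure D1:**
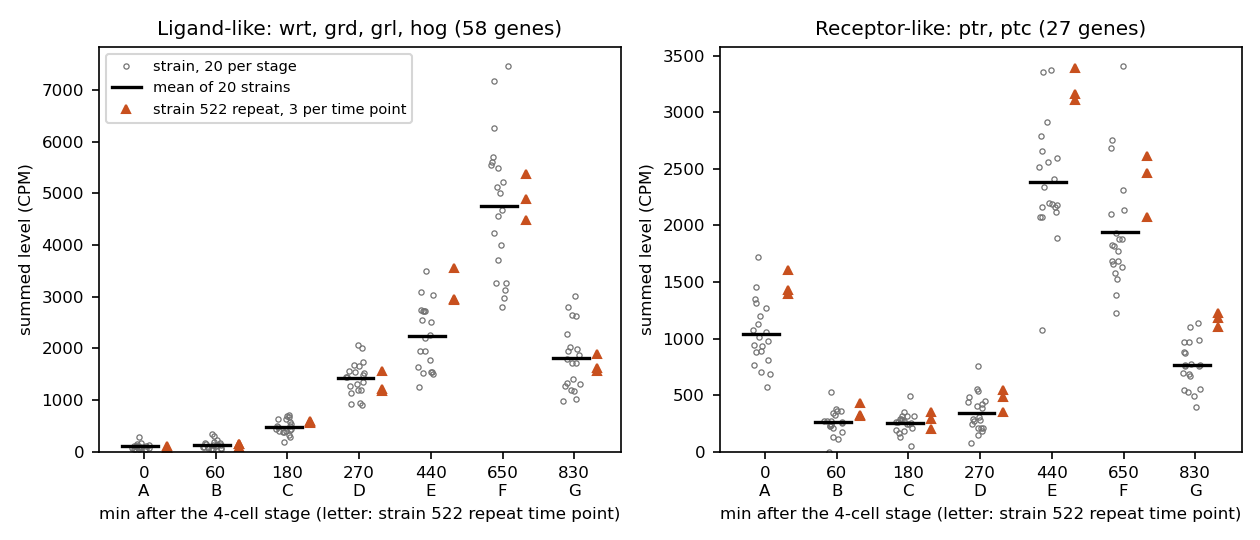
Summed level in CPM of the 58 ligand-like genes (left) and the 27 receptor-like genes (right) at each stage in min after the 4-cell stage. Open circles are single strains (20 per stage), bars their mean, and triangles the 3 repeats of strain 522 at time points A to G. The ligand-like mean is highest at 650 min (4762 CPM), and the receptor-like means are high at 0 min (1039 CPM) and highest at 440 min (2382 CPM).

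A stage of highest mean level is described for the 54 genes with at least 40 counts in the strain libraries, and 11693 genes of the table reached that count. Of the 31 ligand-like genes described, wrt-10 was highest at 270 min, while 9, 17 and 4 were highest at 440, 650 and 830 min. Of the 23 receptor-like genes, 3 were highest at 0 min, and 8, 10 and 2 at 440, 650 and 830 min. In the strains, more genes of both kinds were highest at 650 min than at any other stage. The repeats did not share this order. Among the described genes with at least 10 counts there, more of both kinds were highest at E than at F. Over both kinds, 44 of the 54 genes were highest in the strains at 440 or 650 min, and 0 at 60 or 180 min. Among all 11693 genes, the shares highest at 0, 60, 180, 270, 440, 650 and 830 min were 19.2%, 13.3%, 12.8%, 9.48%, 14.9%, 14.3% and 16%. Many of the profiles were narrow: 26 of the 54 genes had more than 80% of the sum of their 7 stage means at a single stage, as did 7.78% of the 11693 genes. The maximum of ptr-21 lies at 650 and not 440 min with TMM-scaled CPM and without the libraries that were also listed as reruns, and without the reruns that of wrt-4 lies at 440 and not 650 min. The other 31 genes of the set, 27 of them ligand-like and 20 of those ground-like, had 0 to 33 counts over the 140 strain libraries, and grl-28 and grd-8 had 0.

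**Figure D2:**
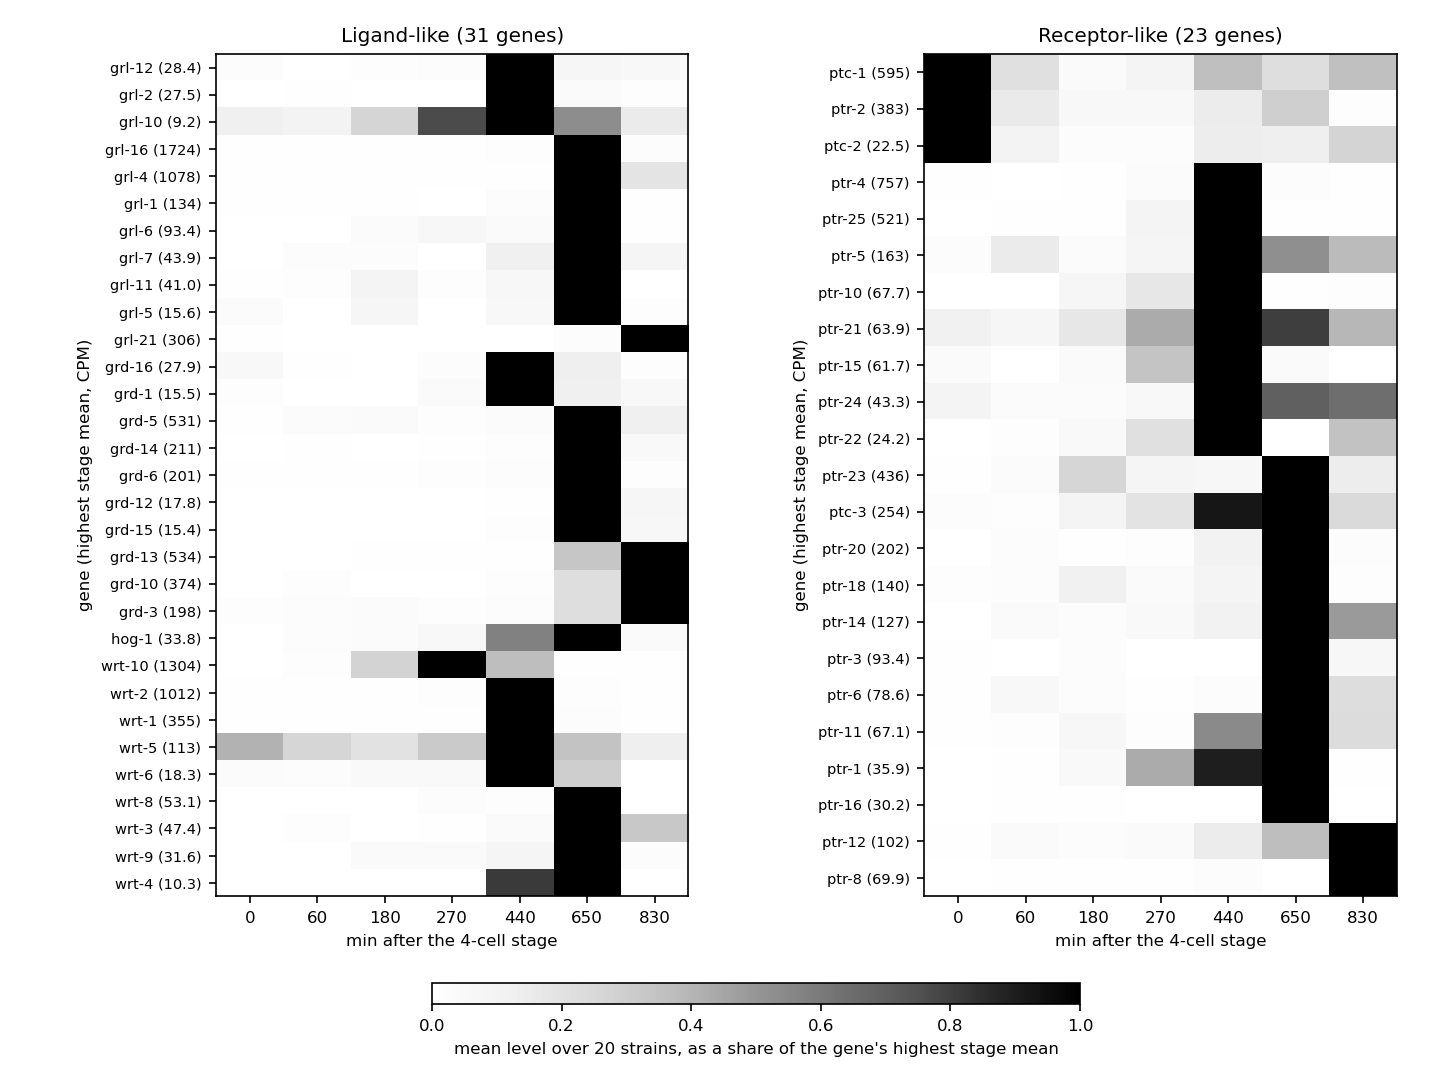
Mean level at each stage over 20 strains of the 31 ligand-like and 23 receptor-like genes with at least 40 counts, drawn as a share of the gene's own highest stage mean, which stands in brackets in CPM. Ligand-like genes are sorted by family and then by stage of the maximum, receptor-like genes by stage of the maximum. Most dark cells lie in the 440 and 650 min columns, with wrt-10 at 270 min and ptc-1, ptr-2 and ptc-2 at 0 min apart from them.

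Adjacent stages were compared gene by gene with edgeR's quasi-likelihood test, and calls required both a Benjamini-Hochberg adjusted p under 0.05 and at least a 2-fold change. A gene entered with at least 40 counts over the 40 libraries of both stages. Since a gene that is silent at one of 2 stages can pass this filter through the other alone, the counts describe the genes tested and not the whole set. Of 4 genes of the set tested between 60 and 0 min, 0 rose and 2 fell, where 40.7% of all 6364 genes tested were called. The same edgeR test gave 4296 of these genes an unadjusted p under 0.05. Of 9 tested between 180 and 60 min, 3 rose and 3 fell, against 46.4% of all genes called. Of 11 tested between 270 and 180 min, 5 rose and 2 fell, against 18.9% of all genes called. Without the libraries that were also listed as reruns, 4 genes of the set were called at this step. The median log2 fold change of the tested genes of the set was -0.94, -0.23 and 1.01 at these 3 steps, beside 0.07, -0.01 and 0.04 over all genes. Up to 270 min most of the set was too scarce to be tested, and the calls were spread over both directions.

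From 440 min on, the calls became numerous. Of 26 genes of the set tested between 440 and 270 min, 24 rose and 1 fell, where 42.9% of all 7875 genes tested were called (28% rose and 14.9% fell). Of 49 tested between 650 and 440 min, 28 rose and 13 fell, where 39.9% of all genes were called (24.7% rose and 15.2% fell). Of 38 tested between 830 and 650 min, 6 rose and 27 fell, where 24.2% of all genes were called (11.1% rose and 13.1% fell). The median log2 fold change of the tested genes of the set was 2.68 at 440 against 270 min, 1.54 at 650 against 440 min and -2.82 at 830 against 650 min, beside 0.13, 0.11 and -0.05 over all genes tested. These medians stay as they are when genes at 0 in a whole group are set to their lower bound. At the last step receptor-like genes numbered 18 of those tested, of which 2 rose and 11 fell, and ligand-like genes numbered 20, of which 4 rose and 16 fell. The split of all calls depends on scaling, and 3 steps are given first. At 60 against 0 min, 1187 genes rose and 1406 fell with TMM scaling, and 779 rose and 1821 fell with RLE scaling. At 180 against 60 min these were 1605 and 1556 with TMM, and 2008 and 1251 with RLE. At 830 against 650 min they were 955 and 1123 with TMM, and 805 and 1483 with RLE. The median change of all genes at these 3 steps was 0.07, -0.01 and -0.05 with TMM and -0.19, 0.24 and -0.25 with RLE (log2). With RLE, the same numbers of genes of the set were called in each direction at the first 2 of these steps, and 6 rose and 29 fell at the last. At 440 against 270 min, 2205 of all genes rose and 1170 fell with TMM, and 2033 and 1594 with RLE. Without N2 these were 1947 and 1715. At 650 against 440 min they were 2123 and 1308 with TMM, and 1988 and 1510 with RLE. The medians at these steps were -0.08 and -0.004 with RLE. Calls of the set kept their numbers in each direction there with RLE.

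**Figure D3:**
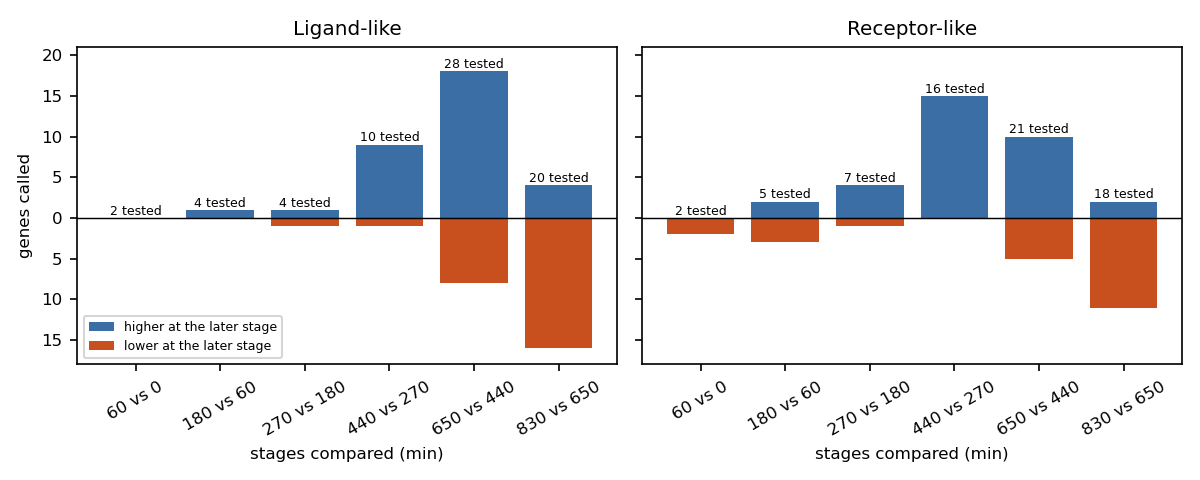
Number of ligand-like (left) and receptor-like (right) genes called higher (bars above 0) or lower (bars below 0) at the later of 2 adjacent stages in the 20 strains, with the number tested above each bar. Most ligand-like rises are called at 650 against 440 min (18 of 28 tested) and the highest number of receptor-like rises at 440 against 270 min (15 of 16 tested).

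Among the warthog genes, wrt-10 had the earliest maximum and was the most abundant. Its transcripts ran from 108 to 578 CPM with a median of 323 at 180 min, against 0 to 66.3 CPM with a median of 11.7 at 60 min. The groups do not overlap, and all 20 strains rose (log2 fold change 4.01 ± 0.27, SE; edgeR adjusted p = 8.73e-22). At 270 min the level ran from 597 to 1942 CPM with a median of 1317, again above all libraries of 180 min (log2 fold change 1.98 ± 0.15, edgeR adjusted p = 6.58e-18), and 20 of 20 strains were highest at this stage. It then fell to 479.6 ± 338 CPM at 440 min, against 1304 ± 353 CPM at 270 min (mean ± SD, n = 20; log2 fold change -1.08 ± 0.18), and to 5.96 ± 9.28 CPM at 650 min (-4.98 ± 0.33). In strain 522 the repeats had 109, 186 and 274 CPM at E, against 1046, 1503 and 1082 CPM at D. No other gene of the set was highest at 270 min.

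As wrt-10 fell, wrt-2 and wrt-1 rose. The promoter of wrt-2 is a common marker of seam cells, the lateral cells of the epidermis, and its exons overlap those of pccb-1 on the opposite strand. Transcripts of wrt-2 ran from 128 to 1929 CPM with a median of 985 at 440 min, against 0 to 134 CPM with a median of 0 at 270 min. Every strain rose, although the highest library of 270 min lies just above the lowest of 440 min (log2 fold change 5.75 ± 0.37, edgeR adjusted p = 7.09e-22). At 650 min wrt-2 had fallen to 17.4 ± 29.3 CPM, a log2 fold change of -5.60 ± 0.35 against 440 min. The neighbouring gene of wrt-10, wrt-1, ran from 0 to 868 CPM with a median of 317 at 440 min, against 0 to 59.7 CPM at 270 min (log2 fold change 5.42 ± 0.44, edgeR adjusted p = 2.06e-17). It rose in 19 strains and stood at 0 at 440 min in strain 508. At 650 min wrt-1 fell as well (-4.84 ± 0.42). Both genes thus gave single pulses, with 93.8% (wrt-1) and 93.9% (wrt-2) of the summed stage means at 440 min.

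The remaining warthog genes were less abundant. The gene wrt-5, which is needed for the development of the epidermis, was the only warthog gene with counts in most libraries at 0 min, where 18 of 20 libraries held it at 46.4 ± 38.8 CPM. It rose to 113 ± 50.02 CPM at 440 min, against 35.6 ± 30.1 CPM at 270 min (log2 fold change 2.06 ± 0.26), and fell at 650 min (log2 fold change -1.01 ± 0.26), a change that stands at -0.99 in the fit with strain as a block, just under the 2-fold limit. It fell again at 830 min (-1.16 ± 0.38). The scarce wrt-6 rose at 440 min as well (18.3 ± 21.9 CPM, log2 fold change 2.82 ± 0.50). The exons of wrt-3 overlap those of a pseudogene on the same strand. At 650 min wrt-3, wrt-8 and wrt-9 rose to 47.4 ± 20.3, 53.1 ± 68.3 and 31.6 ± 58.5 CPM. The increase of wrt-3 was seen in 20 strains (log2 fold change 4.12 ± 0.37), that of wrt-8 in 13 (5.40 ± 0.63) and that of wrt-9 in 12 (3.72 ± 0.62). All 3 fell at 830 min, with log2 fold changes of -1.21 ± 0.31 for wrt-3 and -3.94 ± 0.68 for wrt-9, and wrt-8 fell to 0 in all 20 libraries, at least 46.6-fold lower against a floor of 3 counts over the group. Between 650 and 440 min wrt-4 was tested and not called, with 10.3 CPM at 650 min and 8.36 CPM at 440 min.

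Groundhog transcripts appeared later than those of the abundant warthog genes. The summed groundhog level at 440, 650 and 830 min was 81.9 ± 59.1, 1309 ± 459 and 1184 ± 344 CPM. At 650 min the most abundant was grd-5, which ran from 360.4 to 774 CPM with a median of 503, against 0 to 91.6 CPM with a median of 13.5 at 440 min. Each strain rose, with no overlap (log2 fold change 5.50 ± 0.28, edgeR adjusted p = 2.11e-26). At 830 min grd-5 had fallen to 62.7 ± 45.8 CPM, again without overlap (log2 fold change -2.97 ± 0.21). The same course, with 92.7% and 93.1% of the summed stage means at 650 min, was seen in grd-14 at 211 ± 153 CPM (log2 fold change 6.56 ± 0.50, 19 strains higher) and grd-6 at 201 ± 116 CPM (5.58 ± 0.42, 20 strains higher). Both fell at 830 min (-3.61 ± 0.45 and -4.68 ± 0.41). An earlier call for grd-5, a fall to 6.77 CPM at 270 min from few counts against 20.9 CPM at 180 min (-1.23 ± 0.50), is lost in 4 of the alternative fits, among them that with strain as a block (adjusted p = 0.0709).

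Another 3 groundhog genes, grd-13, grd-3 and grd-10, are immediate neighbours in the RefSeq annotation, in that order, and were all highest at 830 min. The level of grd-13 ran from 183 to 807 CPM with a median of 545 at 830 min, against 0 to 557 CPM with a median of 179 at 650 min. Of the 20 strains, 19 rose, and the groups overlap (log2 fold change 1.57 ± 0.29, edgeR adjusted p = 6.36e-06). For grd-10 the values were 189 to 714 CPM with a median of 322 at 830 min, against 0 to 201 CPM with a median of 75.4 at 650 min, and all 20 strains rose (log2 fold change 2.11 ± 0.28, edgeR adjusted p = 2.24e-09). In grd-3, 17 strains rose to a mean of 198 ± 118 CPM, against 43.8 ± 34.9 CPM (log2 fold change 2.12 ± 0.29). Each of the 3 had also risen at 650 against 440 min, by 5.65 ± 0.53, 3.86 ± 0.47 and 3.58 ± 0.47 on the log2 scale. In the repeats of strain 522, grd-13 had 450.1, 432 and 524 CPM at G, against 253, 243 and 298 CPM at F. For all 3 genes the libraries of G lie above those of F, but the changes are under the 2-fold limit and none is called: 0.75 ± 0.22 for grd-13, 0.88 ± 0.21 for grd-10 and 0.82 ± 0.25 for grd-3 on the log2 scale (edgeR adjusted p = 0.0068, 7.22e-04 and 0.0097).

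Low-level groundhog genes filled in other stages. At 440 min grd-16 rose to 27.9 ± 28.3 CPM (log2 fold change 3.36 ± 0.49) and fell again at 650 min (-2.50 ± 0.51). For grd-1 the mean at 440 min was 15.5 CPM, and it fell at 650 min (-1.78 ± 0.49). The gene grd-12 rose at 650 min to 17.8 ± 37.2 CPM in 8 of 20 strains (3.92 ± 0.63) and fell at 830 min (-2.92 ± 0.65), a fall that DESeq2 does not call (adjusted p = 0.117). Its exons overlap those of xbx-1 on the same strand and of F02D8.1 on the opposite strand, so the source of its few reads is uncertain.

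Ground-like transcripts were close to absent until 440 min, with a summed level of 143 ± 57.7 CPM from all 31 genes, and rose to 3198 ± 1094 CPM at 650 min. Most of this came from grl-16 and grl-4. The level of grl-16 ran from 1079.6 to 2708 CPM with a median of 1768 at 650 min, against 0 to 85.0 CPM with a median of 25.9 at 440 min. No libraries overlap, and 20 of 20 strains rose (log2 fold change 6.64 ± 0.27, edgeR adjusted p = 1.75e-30). A first small rise at 440 min, in 11 strains, had also been called (1.68 ± 0.50). By 830 min grl-16 was back at 40.5 ± 93.9 CPM, also without overlap (log2 fold change -5.37 ± 0.34). It had the highest stage mean of the set in the strains, and in the repeats it stood at 866, 825 and 836 CPM at F, below all 20 strains at 650 min.

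The mean of grl-4 hides a wide spread. At 650 min it ran from 0 to 3178 CPM with a median of 982, against 0 to 54.9 CPM with a median of 0 at 440 min (log2 fold change 6.92 ± 0.60, edgeR adjusted p = 9.10e-16). It was higher at 650 min in 18 strains and lower in 2, and the groups overlap. At 830 min it ran from 79.5 to 444 CPM with a median of 179, lower than at 650 min in 13 strains and higher in 7 (log2 fold change -2.44 ± 0.40). The 3 repeats of strain 522 had 213, 198 and 224 CPM at G, against 2160.0, 1998 and 1567 CPM at F, and those of F lie in the upper part of the range of the strains at 650 min.

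Smaller ground-like pulses also centred on 650 min. The level of grl-1 rose in 20 of 20 strains, without overlap, to 134 ± 66.8 CPM at 650 min, against 3.56 ± 6.07 CPM at 440 min (log2 fold change 4.99 ± 0.33), and fell without overlap at 830 min (-5.03 ± 0.38). Its exons overlap those of hir-1 on the opposite strand. For grl-6 the mean was 93.4 ± 68.1 CPM at 650 min, higher than at 440 min in 19 strains (5.24 ± 0.48). Other rises at 650 min rested on part of the strains: grl-11 on 11 (4.11 ± 0.61), grl-5 on 6 (3.49 ± 0.68; not called by DESeq2, adjusted p = 0.142) and grl-7 on 3 (3.10 ± 0.71). At 830 min grl-6, grl-5 and grl-7 fell, with log2 fold changes of -4.90 ± 0.50, -3.56 ± 0.72 and -3.34 ± 0.81, and grl-11 was at 0 in all 20 libraries, at least 32.7-fold lower. DESeq2 calls neither grl-5 nor grl-7 at this step. One ground-like gene, grl-21, was highest at 830 min. It ran from 0 to 888 CPM with a median of 230.1 at 830 min, against 0 to 75.3 CPM with a median of 0 at 650 min, and rose in 19 strains (log2 fold change 5.94 ± 0.46, edgeR adjusted p = 1.26e-17). Strain 530 had 0 counts of grl-21 at 830 min.

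At 440 min grl-12 and grl-2 gave small pulses in 15 strains each. The promoter of grl-2 marks the duct and pore cells of the excretory system, and its exons overlap those of T16G1.9 on the opposite strand. It was at 27.5 ± 20.9 CPM at 440 min, against 0 in all 20 libraries of 270 min, at least 14.9-fold higher against a floor of 3 counts over the group, and the edgeR log2 fold change of grl-12 was 3.80 ± 0.46. Both fell at 650 min (-2.87 ± 0.49 and -3.27 ± 0.49). Apart from these, hog-1, a gene with a Hog domain, rose at 440 min to 19.4 ± 17.7 CPM (log2 fold change 2.41 ± 0.47) and again at 650 min to 33.8 ± 30.2 CPM (1.21 ± 0.37), and fell at 830 min (-3.22 ± 0.48). Its exons overlap those of atat-2 on the opposite strand, and in the repeats it was highest at E (27.4, 39.8 and 30.5 CPM).

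**Figure D4:**
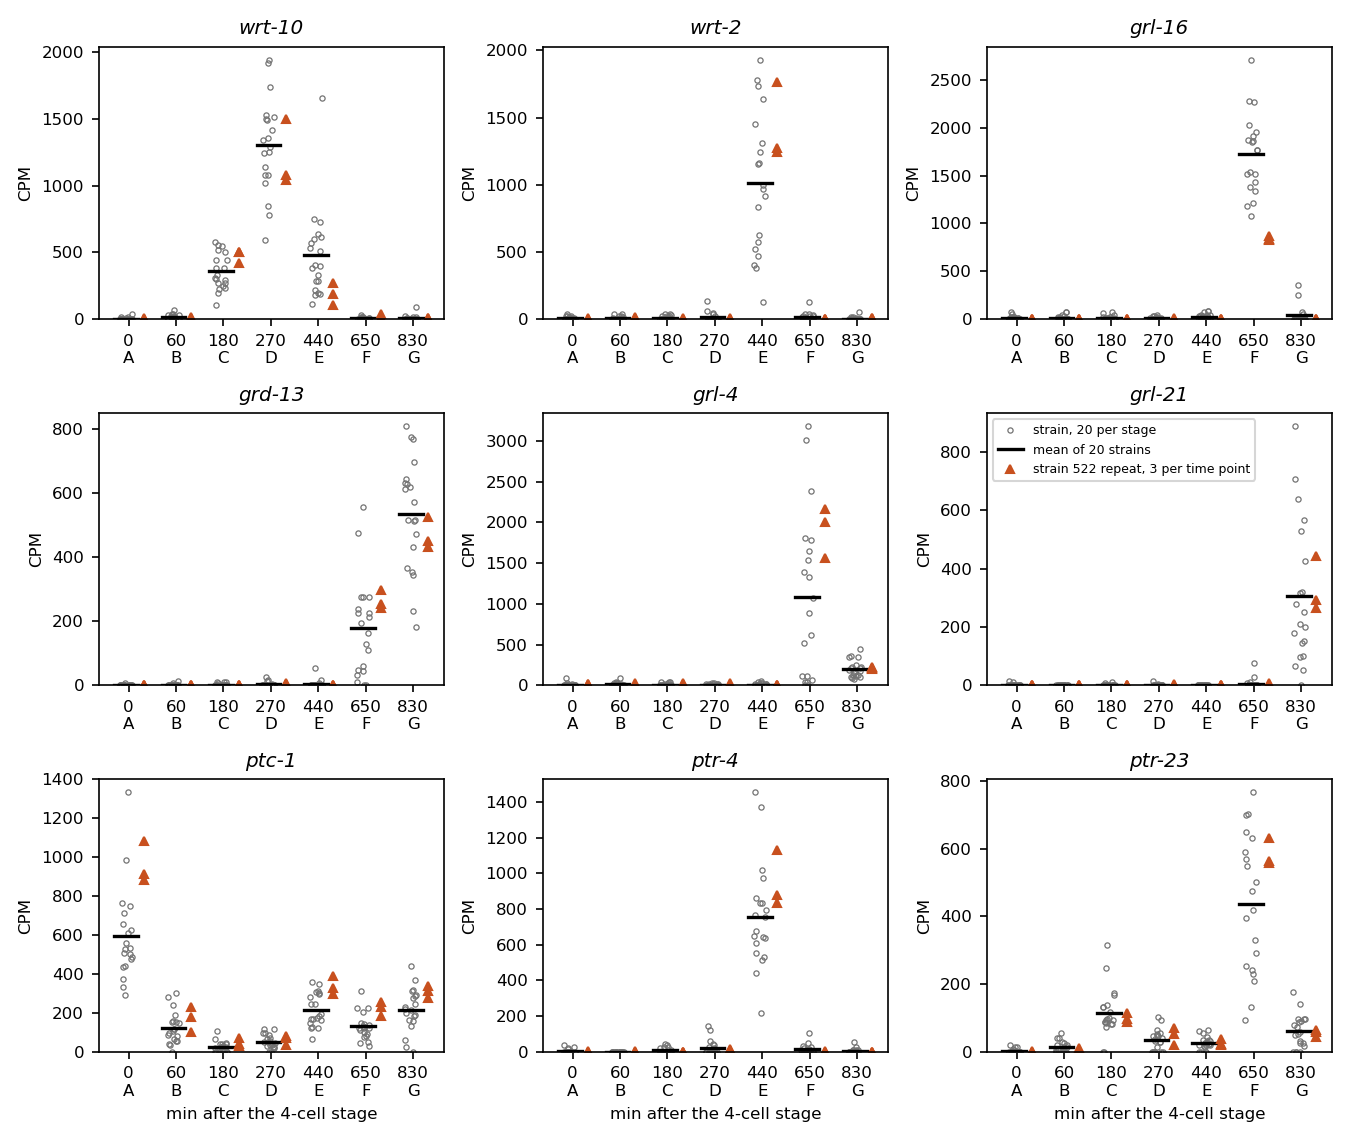
Level in CPM by stage in min after the 4-cell stage for 6 ligand-like genes (wrt-10, wrt-2, grl-16, grd-13, grl-4 and grl-21) and 3 receptor-like genes (ptc-1, ptr-4 and ptr-23). Open circles are single strains, bars their mean, and triangles the 3 repeats of strain 522 at time points A to G. The ligand-like genes follow each other from wrt-10 at 270 min (mean 1304 CPM) over wrt-2 at 440 min (1012 CPM) and grl-16 at 650 min (1724 CPM) to grd-13 at 830 min (534 CPM).

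On the receptor-like side, ptc-1, a Patched protein needed for cytokinesis in the germ line, was the most abundant transcript of the set at the 4-cell stage. Its level ran from 0 to 303 CPM with a median of 112 at 60 min, against 292 to 1333 CPM with a median of 528 at 0 min. All 20 strains were lower, and the highest library of 60 min lies just above the lowest of 0 min (log2 fold change -1.88 ± 0.20, edgeR adjusted p = 4.14e-13). A further fall followed at 180 min, to 24.1 ± 26.3 CPM, against 124 ± 81.0 CPM at 60 min (log2 fold change -2.22 ± 0.29). The gene then came back: at 440 min it ran from 63.6 to 359.7 CPM with a median of 188, against 0 to 117 CPM with a median of 46.8 at 270 min, and rose in 20 of 20 strains (log2 fold change 2.51 ± 0.24, edgeR adjusted p = 1.18e-14). At 650 and 830 min its means were 131 and 215 CPM, and neither step was called. The fit with strain as a block also calls a small rise of ptc-1 at 270 min (1.05, adjusted p = 0.0061), with 52.3 CPM at 270 min against 24.1 CPM at 180 min. In the repeats it had 1083, 915 and 882 CPM at A.

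A like start was seen in ptr-2. It ran from 0 to 141 CPM with a median of 47.3 at 60 min, against 169.7 to 827 CPM with a median of 339 at 0 min, with no overlap and a decrease in all 20 strains (log2 fold change -2.07 ± 0.21, edgeR adjusted p = 1.14e-13). It fell further at 180 min (-1.68 ± 0.33), stood at 22.0 and 20.8 CPM at 180 and 270 min, rose at 440 min (1.93 ± 0.32) and at 650 min to 112 ± 78.0 CPM (1.43 ± 0.27), and fell to 7.14 ± 12.6 CPM at 830 min (-3.80 ± 0.38). In the repeats the rise at F was not seen, with 51.6, 80.9 and 56.1 CPM at F and 63.8, 79.6 and 61.0 CPM at E. The few counts of ptc-2, which RefSeq lists as a pseudogene, were also highest at 0 min (22.5 ± 28.9 CPM). Over the same 0 to 180 min the 5 maternal germline transcripts declined as given above.

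The third patched gene, ptc-3, is essential and has been linked to osmoregulation. Unlike ptc-1 and ptr-2 it had few counts at 0 min (6.35 CPM) and built up in steps. The calls were 1.91 ± 0.43 at 180 min and 2.67 ± 0.24 at 440 min on the log2 scale. At 270 against 180 min the change was 1.01 ± 0.31, and it lies under the 2-fold limit in 5 of the alternative fits, among them that with strain as a block (0.98). At 650 min ptc-3 ran from 150.4 to 435 CPM with a median of 229, against 60.9 to 383 CPM with a median of 255 at 440 min, and the change between these 2 stages was not called. It fell without overlap at 830 min, to 61.3 ± 35.3 CPM (-1.92 ± 0.21). The repeats had 211, 226 and 268 CPM at F, against 419, 371 and 463 CPM at E, so here F lies below E.

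At 440 min a first group of patched-related genes appeared. The most abundant, ptr-4, encodes a protein needed for a normal precuticle and cuticle. It ran from 215 to 1454 CPM with a median of 717 at 440 min, against 0 to 145 CPM with a median of 0 at 270 min. No libraries overlap (log2 fold change 5.00 ± 0.32, edgeR adjusted p = 4.82e-22). At 650 min it had dropped, without overlap, to 14.8 ± 25.2 CPM (-4.93 ± 0.31). A smaller rise of ptr-4 at 270 min (2.0 ± 0.58), from 7.87 CPM at 180 min, rests on few counts and is not called by DESeq2 (0.85, adjusted p = 0.45). Next was ptr-25, which rose at 270 min (3.06 ± 0.47) and again at 440 min to 521 ± 213 CPM (3.64 ± 0.29, 20 strains higher), and at 650 min was nearly gone in all strains, at 3.94 ± 5.94 CPM (-5.91 ± 0.33).

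Other patched-related genes shared this stage. The level of ptr-5 rose without overlap to 163 ± 89.2 CPM at 440 min, against 13.2 ± 14.2 CPM at 270 min (3.80 ± 0.31), and 85.1 and 61.9 CPM were left at 650 and 830 min. The promoter of ptr-10 marks sheath and other glia. Its level rose in 20 strains to 67.7 ± 28.9 CPM (2.70 ± 0.31) and fell without overlap at 650 min (-4.77 ± 0.40), when 1 of 20 libraries held it. Similar courses were seen for ptr-15 (61.7 ± 27.5 CPM at 440 min, 2.13 ± 0.29, then -3.87 ± 0.41 at 650 min) and ptr-22 (24.2 ± 29.6 CPM, 2.04 ± 0.49, then 0 in all 20 libraries of 650 min, at least 13.9-fold lower against the floor). The exons of ptr-10 and ptr-15 overlap those of genes on the opposite strand, F55F8.8 and mec-1. In contrast ptr-24 and ptr-21 rose at 440 min (3.83 ± 0.46 and 1.61 ± 0.40) and were not called lower at 650 min, with 30.0 and 51.2 CPM at 650 min against 43.3 and 63.9 CPM at 440 min. A rise of ptr-21 called at 270 min (1.20 ± 0.44) stands at 0.33 without the libraries listed as reruns (edgeR adjusted p = 0.669) and at 0.83 with strain as a block (adjusted p = 0.157). At 830 min the log2 fold change of ptr-21 was -0.95 ± 0.38, just under the 2-fold limit, and 6 of the alternative fits call it lower, at -1.29 to -1.02, the last of these with strain as a block. An early fall of ptr-5 at 180 min (-1.86 ± 0.48, to 5.02 CPM against 24.6 CPM at 60 min) was also called.

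The second group of patched-related genes was highest at 650 min. The most abundant of them, ptr-23, had 2 maxima. At 180 min it ran from 0 to 315 CPM with a median of 96.0, against 0 to 55.1 CPM with a median of 4.79 at 60 min, and rose in 18 strains (log2 fold change 3.02 ± 0.34, edgeR adjusted p = 3.75e-12). It fell at 270 min (-1.25 ± 0.27) to 34.4 ± 30.5 CPM. At 650 min it ran from 93.8 to 766 CPM with a median of 446, against 0 to 65.2 CPM with a median of 24.6 at 440 min, above all of them (log2 fold change 4.37 ± 0.27, edgeR adjusted p = 5.14e-22). The repeats gave 113, 87.5 and 95.8 CPM at C, 50.9, 20.4 and 68.9 CPM at D and 557, 631 and 564 CPM at F. At 830 min it fell (-2.72 ± 0.26). Both maxima were seen in the repeats too. The early maximum fell at the stage at which wrt-10 first rose.

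Single maxima at 650 min followed in ptr-20 (202 ± 98.4 CPM, 20 strains higher, 3.5 ± 0.27), ptr-14 (127 ± 84.8 CPM, 20 strains higher, 3.75 ± 0.35), ptr-3 (93.4 ± 72.9 CPM, 17 strains higher, 6.03 ± 0.59) and ptr-6 (78.6 ± 76.9 CPM, 18 strains higher, 5.29 ± 0.46). All 4 fell at 830 min, ptr-20 the furthest (-4.20 ± 0.37) and ptr-14 the least (-1.05 ± 0.27). Both ptr-20 and ptr-11 had already risen at 440 min (3.54 ± 0.45 and 4.17 ± 0.42). For ptr-18, ptr-11 and ptr-16 the rise at 650 min was called (3.80 ± 0.51 and 1.54 ± 0.37, and for ptr-16, at 0 in all libraries of 440 min, at least 28.6-fold), with means of 140.5 ± 239, 67.1 ± 82.7 and 30.2 ± 42.5 CPM, in each of which the SD exceeds the mean. Although the call for ptr-11 is a rise, 8 strains were higher and 10 lower at 650 min. At 830 min ptr-18 and ptr-11 fell (-5.04 ± 0.61 and -2.01 ± 0.43), and ptr-16 was at 0 again in all 20 libraries, at least 26.9-fold lower. The level of ptr-1 rose at 440 min (1.47 ± 0.38) and fell at 830 min (-4.23 ± 0.60), and its exons overlap those of spas-1 on the opposite strand.

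At 830 min, when most of the set was in decline, ptr-8 and ptr-12 rose. Transcripts of ptr-8 were in 19 of 20 libraries at 830 min, against 1 of 20 at 650 min, and ran from 0 to 177 CPM with a median of 66.2 at 830 min (log2 fold change 5.26 ± 0.43, edgeR adjusted p = 9.81e-17). Its exons overlap those of sra-10 on the opposite strand. The level of ptr-12 went up at 440, 650 and 830 min, with log2 fold changes of 2.27 ± 0.50, 1.22 ± 0.46 and 1.62 ± 0.35, to 102 ± 77.5 CPM. Where the deposited counting ignored strand, reads of such overlapping pairs cannot be told apart, and its use of strand is not given in the sources used here.

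The deeper repeats of strain 522 were tested in the same way, with filterByExpr as the filter. Of 26 genes of the set tested between E and D, 23 rose and 1 fell, where 48.2% of all genes tested were called (27.7% rose and 20.5% fell). Of 38 tested between F and E, 17 rose and 16 fell, where 46.7% of all genes were called (25.4% rose and 21.3% fell). Of 26 tested between G and F, 2 rose and 12 fell, where 23.6% of all genes were called (10.3% rose and 13.4% fell). At the earlier steps 2 of 3 tested were called between B and A, 2 of 2 between C and B and 1 of 3 between D and C, against 41.2%, 47.1% and 19% of all genes. At this last step 1 gene of the set rose and 0 fell, where 11.3% of all genes rose and 7.69% fell; the same edgeR test gave 1302 of all genes an unadjusted p under 0.05. Among genes of the set called in the strains and tested in the repeats, the sign of the change was the same in 21 of 21 at 440 against 270 min, 28 of 31 at 650 against 440 min and 21 of 22 at 830 against 650 min, and 20, 28 and 14 of these were also called that way in the repeats. Over all genes called in the strains and tested in the repeats, 99.7%, 98.7% and 98.4% had the same sign at these steps, and 91.1%, 87.4% and 75.6% were called the same way. For 50 of the 54 genes with a described maximum the repeats held at least 10 counts, and in 40 of these the maximum fell at the matching time point, as it did in 74% of all 11615 genes that met both minimums. The minimum left out wrt-8, grl-11, ptr-16 and ptc-2, with 2, 9, 6 and 7 counts in all repeats. At F the first 3 had 3.28, 2.03 and 2.89 CPM, against 53.1, 41.0 and 30.2 CPM in the strains at 650 min. For ptc-2 the mean was 2.11 CPM at A, against 22.5 CPM at 0 min.

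Each of the 10 genes with a maximum elsewhere was highest earlier in the repeats than in the mean of the strains. The share of all genes with that direction was not counted, so it cannot be read as a trait of these genes. In strain 522 grl-5, grl-7, hog-1, wrt-4, wrt-9, ptc-3, ptr-11 and ptr-18 were highest at E and not at F, and ptr-1 and ptr-22 at D. For 2 genes the calls are opposite. Transcripts of grl-7 had 0 CPM in all 3 libraries of F, against 54.7, 48.2 and 51.8 CPM at E, a fall of at least 18.3-fold against the floor of 3 counts over the group. In the 20 strains grl-7 was called higher at 650 min. That call rests on strains 508 and 516, which had 727 and 122 CPM where the others had at most 10.4, and without strain 508 at 650 min the log2 fold change is 1.52 ± 0.54 (edgeR adjusted p = 0.0133), while DESeq2 does not call it (0.85). For ptr-18 the repeats had 18.04, 24.3 and 24.5 CPM at F, against 205, 107 and 137 CPM at E (log2 fold change -2.45 ± 0.34, edgeR adjusted p = 2.09e-07), where the strains gave 3.80 ± 0.51 at 650 against 440 min. The difference between the 2 sets was not tested. A further gene, grl-15, with 27 counts in all strains, reached 118.5, 90.1 and 94.5 CPM at E in the repeats and 0 in all 3 libraries of D and of F.

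At 650 min the strains differed from each other more in some genes of the set than in others. The level of grl-16 had a narrow range over the 20 strains, from 1079.6 to 2708 CPM, and that of grd-5 from 360.4 to 774 CPM. In the same libraries grl-4 was 0 CPM in strain 508, 3.599 in 516, 43.7 in 502, 47.4 in 575, 61.6 in 570, 119.3 in N2 and 120.1 in 550. It was 527 CPM in strain 566 and 619.7 in 593, and from 890.3 in 555 to 3178 in 598 in the other 11. No library lies between 120.1 and 527 CPM. The values above 0 in 516, 502, 575 and N2 rest on few counts, in libraries of 277884, 45721, 63327 and 33541 counts.

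Several other genes of the set can be read strain by strain beside grl-4, in the plot of the single strains at 650 min. In strain 508, which had 0 CPM of grl-4, grd-13, grd-14 and ptr-3 were also at 0, while ptr-18 had 867 CPM, grl-7 727, wrt-9 246 and grl-5 152 CPM, each the highest of all strains. In strain 516 ptr-18 had 770.1 CPM, ptr-6 331, ptr-11 266 and ptr-16 162 CPM, beside 10.8 CPM of grd-13 and 0 of ptr-3. Strain 598 had 475 CPM of grd-13, 495 of grd-14 and 413 of grd-6, and 0 of wrt-8, wrt-9, ptr-11, ptr-16 and grl-7. Strain 529 likewise had 557 CPM of grd-13 and 0 of wrt-8 and ptr-16. N2 had 59.6 CPM of grd-13, 59.6 of wrt-8 and 149 of grl-11. These strains were picked out after their values were seen, so the values are a description with no test. By 830 min grl-4 was between 79.5 and 444 CPM in every strain and grd-13 between 183 and 807 CPM.

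Strain 508 also stood apart at 440 min. It had the highest wrt-10 of the 20 strains at that stage (1658 CPM, where the others had 115 to 750.1 CPM) and the lowest wrt-2 (128 CPM, where the others had 385 to 1929 CPM), and 0 of wrt-1. The repeats of strain 522 held the genes that were high in strain 508 at 650 min (grl-7, grl-5 and ptr-18) at time point E. Total counts of strain 508 at 650 min were 85326, inside the range of that stage (31318 to 277884). Strain 516 had the highest total of that stage, 277884, and its library is one of those listed as reruns. The part of these libraries in the other results was not tested beyond leaving out strain 508 at 650 min. Without it 39 genes of the set were called at 650 against 440 min (41 with it) and 32 at 830 against 650 min (33 with it). The fall of wrt-5 at 650 min then stood at -0.98 and was not called, and grl-5 had too few counts to be tested at either step.

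With stage in the model, 24 of 37 genes of the set differed between strains over all 7 stages (edgeR quasi-likelihood F test of the strain terms, adjusted p under 0.05), where 47.5% of all 8842 genes tested did. The smallest adjusted p was that of wrt-1 (8.17e-09), whose level at 440 min ran from 0 CPM in strain 508, 55.4 in 593 and 60.9 in 575 to 791 in 555 and 868 in 522. It was followed by ptr-18 (1.56e-08), grd-14 (1.27e-07), wrt-8 (3.36e-07) and ptr-25 (6.10e-07). For ptr-25 the level at 440 min ran from 131 CPM in strain 598 to 833 in 593. For grl-21 the adjusted p was 4.11e-06, with 0 CPM in strain 530 and 888 CPM in strain 575 at 830 min. Among the 13 genes not called were grd-5, grd-3, wrt-5, ptr-2 and ptc-3, with adjusted p of 0.79, 0.759, 0.724, 0.547 and 0.314, and wrt-10 missed the threshold at 0.0693, but is called with RLE scaling (edgeR adjusted p = 0.0367). Several of these calls depend on the libraries used. The call of grl-16 is lost without N2, that of grd-13 without the shallow libraries and without the libraries listed as reruns, and those of ptr-5, ptr-21 and grl-6 without the reruns, while grd-10 is gained in each of these 3 cases. Without the reruns wrt-8 and ptr-8, both called with all libraries, had too few counts to be tested, as had ptr-8 without N2. Each strain has 1 library per stage, so a strain cannot be told apart from its pools.

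A list of 12 relatives was read beside the set, genes chosen for their similarity to proteins of Hedgehog processing, release and sterol handling. At 440 against 270 min 6 of 9 tested rose and 0 fell, where 28.0% of all genes tested rose and 14.9% fell. At 650 against 440 min 1 of 9 rose and 5 fell, where 24.7% of all genes rose and 15.2% fell. The secreted hedgehog-related protein gene qua-1 had means of 12.96, 418 and 6.16 CPM at 270, 440 and 650 min (log2 fold change 4.65 ± 0.34 at 440 min and -5.47 ± 0.34 at 650 min). For hhat-1 and hhat-2, named for the acyltransferase that lipid-modifies Hedgehog, the means at 440 min were 316 and 118 CPM (4.41 ± 0.30 and 2.74 ± 0.29), and both fell at 650 min. The patched-related daf-6, which shapes the channels of glia, the Dispatched relative che-14 and phg-1, a relative of Gas1, rose at 440 min as well (4.90 ± 0.35, 2.42 ± 0.32 and 4.20 ± 0.38). The single riser at 650 min was ncr-1, a relative of the sterol transporter NPC1 (1.78 ± 0.38). The scp-1 and hmgr-1 genes of the sterol pathway were highest at 0 min (30.1 and 58.7 CPM), and tra-1, the Gli relative, stayed at or under 17.5 CPM.

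Cuticle and precuticle genes gave a time scale for the set. Of 10 precuticle genes, 8 of 9 tested rose at 270 against 180 min, where 836 of all 6981 genes tested rose. At 440 against 270 min the precuticle list was split, and 4 of 10 tested rose and 4 fell. At 650 against 440 min 10 of 10 tested fell. Of 6 furrow collagens, which shape the first cuticle, 4 of 4 tested rose at 440 against 270 min and 4 of 4 tested fell at 650 against 440 min. Of 13 moulting genes, 5 of 9 tested rose and 1 fell at 440 min, and 1 of 8 rose and 4 fell at 650 min. Of all genes tested, 28.0% rose and 14.9% fell at 440 against 270 min, and 24.7% rose and 15.2% fell at 650 against 440 min. Summed over each list, the median level at 650 min was 60.6 CPM for precuticle genes and 31.3 CPM for furrow collagens, against 5057 and 4972 CPM at 440 min. The pulses of wrt-10, wrt-2, wrt-1, ptr-4 and ptr-25 thus lay within the stages at which these lists were high, and the abundant groundhog and ground-like maxima at 650 and 830 min lay after their decline. The summed epidermal markers stood at 1582, 2958, 351 and 426 CPM at 270, 440, 650 and 830 min, all 5 with counts at each stage. Of the 5, dpy-7, which is also one of the furrow collagens, and ajm-1 had higher means at 440 than at 270 min, dpy-7 with 1891 CPM at 440 min against 394 CPM at 270 min and ajm-1 with 780.1 CPM against 693 CPM. The other 3 had lower means, elt-1 with 61.9 CPM at 440 min against 99.1 CPM at 270 min, lin-26 with 190.3 CPM against 346 CPM and elt-3 with 129 CPM against 147 CPM. The part of these markers in the results was not tested.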

How the data were processed

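Gene counts of 140 strain libraries and 21 repeat libraries were used as deposited; per the submitters' processing notes the authors used CASAVA 1.8 and Bowtie2 2.1.0 to make these counts. Use of molecular identifiers, the genome build and the use of strand in counting are not stated in the labels or headers, so error from counting alone is a lower limit, and no coordinates are given. In the repeat table, 17.8% to 47.7% of aligned reads lay in no feature and stayed out of totals. A total of 7 columns of per-sample values were not used. Of the 20687 sequence names, 20063 matched a RefSeq locus tag (WBcel235), used for names and neighbours, and exon overlaps came from the Ensembl annotation of the same assembly.

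Adjacent stages were compared with edgeR 4.0.16 (TMM scaling, quasi-likelihood test, Benjamini-Hochberg adjustment over all genes tested) in R 4.3.3. Strain pairs needed at least 40 counts over both stages, repeats passed filterByExpr, and the strain effect, fitted with stage as a covariate, needed 140. The edgeR stage test was also run on counts simulated from 440 against 270 min (strains) and E against D (repeats). The other steps and the strain effect were not simulated. Libraries of one strain pair across stages, since they come from the same line: their deviations from the stage means correlated with medians of 0.0746 to 0.175 over 4044 genes, against -0.0247 to -0.00315 for other strains. Alternatives were DESeq2 1.42.0, RLE scaling, other filters, strain as a block, and leaving out N2, 4 shallow libraries, 8 libraries listed as reruns (chosen after seeing the data), strain 508 at 650 min (likewise) and single repeats. Named genes are the most abundant of each family and those called in the strains. The genes of the set and all lists were chosen with earlier results of these data known.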

Additional observations from a re-analysis of the deposited data

How the results depend on the processing

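Changes of sign were counted only for genes called in the reported fit or in the alternative run. Among these, no gene of the set changed direction. Of its strain results, 128 of 137 kept their call with DESeq2, 134 with RLE scaling, 134 without a filter, and 131 with strain as a replicate block, where 4 calls were lost and 2 gained; the values of those stand in the report. The filter moved the counts most. With filterByExpr, which keeps few genes of shallow libraries, 425, 595, 180, 466, 546 and 240.0 genes were called over the 6 strain steps (2593, 3161, 1319, 3375, 3431 and 2078 with the filter used), and 1, 1, 4, 7 and 7 genes of the set at the steps to 180 min and later (6, 7, 25, 41 and 33). Without a filter, 2030.0, 5283 and 5291 genes were called at the strain steps to 270, 440 and 650 min, and 11, 11 and 39 of the set at the steps to 60, 180 and 440 min. At 270 against 180 min, 4 of the set were called with DESeq2 and 4 without rerun libraries (7 as reported). In the repeats without a filter, 2871, 2764, 1273, 4904, 4632 and 1762 genes were called (1838, 1363, 608, 3012, 2667 and 1134 as reported), and of the set 4, 4 and 39 at B to C, C to D and D to E. Without a filter, 40 of 83 genes of the set differed between strains; in the other alternatives 20 to 25 of 32 to 37 did. The 2 genes of each kind with the highest means at the stage of its highest sum were also left out. This choice lowers that stage by design. The summed level was then highest at 440 min for ligand-like and at 650 min for receptor-like genes (650 and 440 min as reported).

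Leaving out single repeats gave 1728 to 2276, 1451 to 1804, 613 to 734, 3044 to 3665, 2753 to 3283 and 977 to 1515 genes from A to B on, and 2 to 4, 1 to 2, 23 to 28, 33 to 38 and 14 to 15 of the set from B to C on. Repeat numbers do not pair the repeats: correlations of deviations had medians of -0.184 to -0.0134, and the replicate block by number gave 2 calls of the set at C to D (1 without). At the median strain depth, levels under 17.5 CPM are below 1 count per library.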

Other observations

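Genes of the set below 40 counts in the strains can be read in the deeper repeats. Of these, grl-15 had 118.5, 90.1 and 94.5 CPM at time point E and 0 at D and F, and in the strains it reached 152 CPM at 650 min in strain 508. It was picked out after its values were seen. Its exons overlap those of Y75B8A.19 on the opposite strand. Besides the triplet grd-13, grd-3 and grd-10, the neighbouring pairs of the set in the annotation are wrt-1 with wrt-10, grd-14 with grd-4, grl-8 with grl-9, and grl-30 with both grl-29 and grl-31. In the pair with counts enough to describe, wrt-10 was highest at 270 min and wrt-1 at 440 min.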
